A study of Mus musculus with 6 samples.

Results

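Late-numbered mouse miRNAs, those whose first number after miR- is 1000 or more, made up 151 of the 649 mature miRNA entries in the deposited count table. An entry was taken where it had at least 1 count in any of 4 libraries, and no other value was used to choose single entries. The set itself was chosen with earlier results of these data known. The libraries were made from small RNA of skin tissue of C57 mice, from a diabetic ulcer or a normal ulcer, both labelled day 14, with 3 deposited samples in each group. The labels name no other strain, allele or treatment, and the sources used here do not give how diabetes was brought about, how the ulcers were made or the age of the mice. Separate animals are not stated for the replicates; a p-value here is thus set against the spread of the libraries alone, and that spread could be technical. The columns numbered 3 were not independent of the others: diabetic ulcer 3 repeated the count of diabetic ulcer 1 or 2 for 129 of the 151 late-numbered miRNAs, and normal ulcer 3 was within 1 read of the mean of normal ulcers 1 and 2 for 138 of 151. The comparisons therefore rest on diabetic ulcers 1 and 2 and normal ulcers 1 and 2. Groups follow the sample titles, and every direction below rests on them; the header of the authors' comparison table names the same columns the other way round, with those titled diabetic ulcer as control and those titled normal ulcer as case.

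A mature miRNA is a short RNA cut from a hairpin; it guides Argonaute proteins to messenger RNAs that pair with its seed, the bases near its 5′ end. The hairpin has a 5p and a 3p arm, one of which usually accumulates more. Numbers are given in order of registration, so that late numbers went mainly to sequences found by deep sequencing, many of them annotated in mouse or rodents only. Some of these registered sequences lie inside small nucleolar or Cajal body RNA genes, whose products (snoRNAs and scaRNAs) guide the chemical modification of ribosomal and spliceosomal RNAs and can also be cut into miRNA-sized pieces. Others are mirtrons, short introns that fold into a hairpin after splicing and skip the Drosha step, so that one or both ends of the hairpin are splice sites.

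The sequences of the 6 most abundant late-numbered miRNAs from separate hairpins are shown first, because they carried most of the reads; they are mature sequences from RefSeq, 5′ to 3′, with the seed (bases 2 to 8) in capitals.
miR-1839-5p: aAGGTAGAtagaacaggtcttg
miR-3535: tGGATATGatgactgattacctgaga
miR-1843a-5p: tATGGAGGtctctgtctgact
miR-3074-5p: gTTCCTGCtgaactgagccagt
miR-1981-5p: gTAAAGGCtgggcttagacgtggc
miR-1198-5p: tATGTGTTcctggctggcttgg
In GRCm38.p6, the build of the RefSeq table, miR-1839-5p lay at chr7:81529919-81529940 on the plus strand, in an exon of the long noncoding RNA 2900076A07Rik, where GENCODE also lists Mir1839 as a scaRNA. miR-3535 lay at chr1:86352062-86352087 on the minus strand, in the snoRNA gene Gm24148 within Ncl, the gene of nucleolin, a major nucleolar protein. miR-1843a-5p lay at chr12:80391654-80391674 on the minus strand, in Scarna3b within an intron of Dcaf5, a substrate receptor of a cullin ubiquitin ligase. miR-3074-5p lay opposite a miR-24 hairpin at chr8:84208873-84208894 on the minus strand, with a second exact copy opposite the other miR-24 hairpin. miR-1198-5p lay at chrX:7807142-7807163 on the plus strand, in an intron of Gripap1, which codes for a protein of recycling endosomes.

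The sequence of miR-1981-5p started on the first base of an intron of Marc2, the gene of a mitochondrial reductase, and its hairpin was the whole intron. That hairpin and that of miR-7091, an intron of the DNase-like gene Dnase1l1, are shown because both ends of each are splice sites; the 2 mature arms are in capitals.
Mir1981: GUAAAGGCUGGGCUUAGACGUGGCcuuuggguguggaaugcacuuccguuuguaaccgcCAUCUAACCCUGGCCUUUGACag
Mir7091: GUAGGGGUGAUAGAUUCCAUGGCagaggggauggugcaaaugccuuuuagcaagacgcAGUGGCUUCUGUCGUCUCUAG
Mir1981 spans the 82 bases of chr1:184822407-184822488 and Mir7091 the 79 bases of chrX:74274027-74274105, both on the minus strand of GRCm38.p6.

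Of the 6 late-numbered miRNAs with the smallest unadjusted p-values between the ulcers, none of which had an adjusted p-value below 0.05, the 5 with a RefSeq entry are shown next, again with the seed in capitals.
miR-3102-3p: gAGCACCCcattggctacccaca
miR-1843b-5p: aTGGAGGTctctgtctgactt
miR-7236-3p: tTGGACCGcacagatttagacc
miR-7688-5p: tAGCTGGGcatgatctgatgagc
miR-1291: aTGGCTCTtactgaagactagcagtt
miR-3102-3p (chr7:100882307-100882329, minus strand) lay 1 base short of the end of an intron of Arhgef17. miR-1843b-5p (chr1:159340362-159340382, plus strand) lay in Scarna3a within an intron of the ubiquitin ligase gene Cop1. miR-7236-3p (chr11:121387145-121387166, minus strand) lay in an intron of Rab40b, which codes for a small GTPase, and miR-7688-5p (chr10:93433107-93433129, plus strand) lay in no annotated gene. miR-1291 (chr15:98519828-98519853, minus strand) lay in Snora34, a snoRNA gene in an intron of Kansl2, which codes for a subunit of a histone acetyltransferase complex.

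Depth and tissue content differed within both groups. The libraries held 9309055 and 10762761 miRNA counts in diabetic ulcers 1 and 2 and 8949104 and 13421603 in normal ulcers 1 and 2. The muscle miRNA miR-1a-3p took 34.4% and 44.4% of the counts of diabetic ulcers 1 and 2, and 16.4% and 65.0% of those of normal ulcers 1 and 2. The 5 skeletal muscle markers together took between 35.7% and 44.9% in the diabetic ulcers and between 17.2% and 66.1% in the normal ulcers, and 4 of the 5 were above 0 in every library, miR-499-5p being at 0 in normal ulcer 1. All 7 keratinocyte and epithelium markers, which were listed to check for the labelled skin, were above 0 in all 4 libraries. They summed to 1.96% to 5.09% in the diabetic ulcers and 1.44% to 6.99% in the normal ulcers. All 5 leukocyte, 4 erythroid and 2 endothelium markers were above 0 in all 4 libraries; they summed to at most 0.141%, 0.111% and 1.85% in the diabetic ulcers and 0.0984%, 0.0999% and 1.57% in the normal ulcers. The part of these cell types in the values below was not tested. In bulk tissue, fewer cells of a type and less RNA per cell cannot be told apart.

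Late-numbered miRNAs were rare. Their median level was 0.405 CPM (counts per 1000000 counts, scaled between libraries by the trimmed mean of M-values, TMM, and averaged over the 4 libraries), against 11.5 CPM for the other 498 entries. Of the 151, 13 (8.61%) exceeded 10 CPM, against 260 of 498 (52.2%), and 104 of the 151 stayed at or below 1 CPM. Whether they are specific to rodents was not tested; 16 of the 151 are on a list, written from background knowledge, of numbers also annotated in human. That list is not complete, since miR-1291, for example, is annotated in human too. Around the number limit, miR-1191a, miR-1191b-5p, miR-1193-3p, miR-1193-5p and miR-1197-3p stood just inside at a mean of 0.185 to 3.92 CPM, and miR-877-3p, miR-877-5p, miR-879-5p and miR-935 just outside at 0.162 to 0.503 CPM.

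Together the late-numbered miRNAs took 14788 and 16847 counts in diabetic ulcers 1 and 2, and 16791 and 12874 in normal ulcers 1 and 2. As a share of all counts this was 0.159% (95% Wilson interval 0.156 to 0.161) and 0.157% (0.154 to 0.159) in the diabetic ulcers, and 0.188% (0.185 to 0.190) and 0.0959% (0.0943 to 0.0976) in the normal ulcers. Both diabetic ulcers lay between the 2 normal ulcers, and the intervals, which cover counting error only, were far narrower than the gap between the normal ulcers. The mean share was 0.158% ± 0.00164 in diabetic ulcers and 0.142% ± 0.0648 in normal ulcers (SD, n = 2 each; exact two-sided permutation p = 1.0, the smallest possible being 0.333). With miR-1a-3p taken out of the total, the shares were 0.242% and 0.282% in diabetic ulcers 1 and 2 and 0.224% and 0.274% in normal ulcers 1 and 2, so that the groups still overlapped.

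Most of these reads came from few miRNAs. Of 61300 counts over the 4 libraries, miR-1839-5p held 46.8%, the 5 most abundant members 75.3% and the 12 most abundant 90.9%. Of the 151, 11 had at least 1000 counts over the 4 libraries, 16 had at least 100 but under 1000, 42 had 20 to 99 and 82 had fewer than 20. The 41 miRNAs numbered in the 1000s held 43100 of the counts and the 40 in the 3000s held 15799, against 770 for the 29 in the 7000s and 857 for the 21 in the 6000s.

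At least 1 count was present for 140 and 144 of the 151 in diabetic ulcers 1 and 2, and for 131 and 136 in normal ulcers 1 and 2. Both diabetic libraries thus detected more late-numbered miRNAs than either normal library, by 8.5 on average; this was given no test. For the other 498 entries the numbers overlapped, at 481 and 488 in the diabetic ulcers and 487 and 484 in the normal ulcers. Thinned to the total of the shallowest library, the expected numbers were 139.1 and 141.9 in the diabetic ulcers and 131.0 and 128.1 in the normal ulcers. These totals include miR-1a-3p. Without it normal ulcer 2 had the fewest counts, 4700278, against 6104969 and 5984550 in diabetic ulcers 1 and 2 and 7479597 in normal ulcer 1. Normal ulcer 2 was still thinned the most, so the thinned numbers do not stand at a common depth for the other miRNAs. At 10 counts or more the numbers were 52 and 53 in the diabetic ulcers and 49 and 47 in the normal ulcers, and at 3 counts or more they overlapped, with 102 and 123 in the diabetic ulcers and 103 and 102 in the normal ulcers. The other 498 entries were not counted at 3 or 10 counts. Whether the order at 10 counts is particular to late-numbered miRNAs was thus not tested. Across libraries 114 miRNAs were seen in all 4, 27 in 3, 4 in 2 and 6 in 1, and the library was diabetic ulcer 2 for each of those 6. None was at 0 in both diabetic ulcers, while 9 were at 0 in both normal ulcers. Those 9 met the entry rule of 1 count only through the diabetic ulcers. They thus add to the diabetic numbers alone, all 9 to diabetic ulcer 2 and 3 of them also to diabetic ulcer 1. Without those 9, the unthinned numbers at 1 count or more overlap between the groups. That both diabetic libraries stood above either normal library at this limit thus rests on the entry rule. Of those 9, miR-1933-5p (2 and 5 counts in diabetic ulcers 1 and 2), miR-7670-3p (2 and 4) and miR-6951-5p (1 and 3) had reads in both diabetic ulcers; these counts are near the limit of detection, since a count of 0 allows up to 3 counts, or 0.224 to 0.335 CPM of a library's total.

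Sequence and position are given beside the rest of the table as descriptions, with no test, and the classes that follow were drawn up after values had been seen. RefSeq held 135 of the 151 as mature sequences and 10 more within a hairpin, and 6 (miR-12191-3p, miR-1949, miR-3079-5p, miR-6539, miR-6951-5p and miR-7219-3p) were not matched. Their median GC content was 52.2%, against 45.8% in the rest, and 82.1% of them were 21 to 23 bases long, against 92.2%. They shared almost no seeds: the 151 carried 150 distinct ones, and the only pair with a common seed was miR-3064-5p and miR-3085-3p. With older miRNAs, miR-1193-3p shared its seed with miR-370-5p, miR-1193-5p with miR-379-5p, miR-5129-3p with miR-455-5p, miR-6539 with miR-128-3p, and miR-7670-3p with both miR-204-5p and miR-211-5p. Of 145 with a place in the genome, 121 (83.4%) lay in a longer gene on the same strand, against 291 of 446 (65.2%). A snoRNA or scaRNA gene held 14 of the 151 (9.27%), against 4 of the 498 (0.803%), and 21 of 145 (14.5%) lay within 2 bases of an intron end, against 3 of 446 (0.673%).

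**Figure D1:**
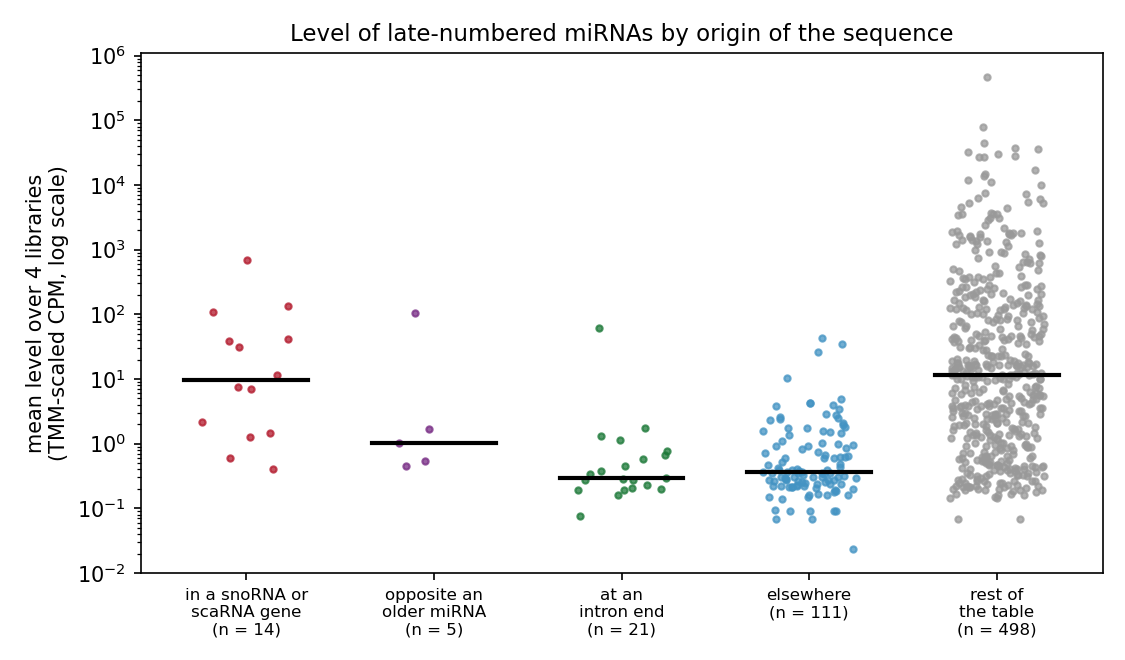
Mean level over the 4 libraries (TMM-scaled CPM, log axis) of each late-numbered miRNA by the kind of place its sequence has, and of the rest of the table; each point is 1 miRNA and each bar a median. The 14 miRNAs in snoRNA or scaRNA genes have a median of 9.54 CPM, against 1.04, 0.290 and 0.360 CPM in the other late-numbered classes and 11.5 CPM in the rest of the table.

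With miR-1839-5p alone at 46.8% of the late-numbered counts over the 4 libraries, the 14 miRNAs in snoRNA or scaRNA genes held most of the reads. They took 73.3% and 73.9% of the late-numbered counts in diabetic ulcers 1 and 2, and 72.7% and 74.6% in normal ulcers 1 and 2, so that this share hardly varied between the 4 libraries. Their summed level was 1014 and 1151 CPM in the diabetic ulcers, against 993 and 1135 CPM in the normal ulcers. Besides the miRNAs of miR-1839, miR-3535, miR-1843 and miR-1291 they were both arms of miR-3068 (listed as a snoRNA in an intron of Alkbh1, which codes for a nucleic acid demethylase) and of miR-3084 (Snora19 and Gm23658), miR-3069-3p (Scarna13), miR-5121 (Snord33) and miR-6516-5p (the scaRNA gene Gm26083). Reads of the longer snoRNA or scaRNA cannot be told apart from reads of a processed miRNA in a table of counts per miRNA.

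miR-1839-5p had 692 and 666 CPM in diabetic ulcers 1 and 2, against 634 and 746 CPM in normal ulcers 1 and 2. The diabetic values lay between the normal ones, and the log2 difference, diabetic minus normal, was -0.02 ± 0.24 (SE). Its 5p arm held 99.3% and 98.5% of the reads of both arms in the diabetic ulcers and 98.8% and 99% in the normal ulcers. miR-3535, the next most abundant, had 103 and 184 CPM in diabetic ulcers 1 and 2, against 139 and 120 CPM in normal ulcers 1 and 2. Its diabetic values thus lay on either side of both normal ones (log2 difference 0.15 ± 0.34).

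The arms of miR-3068 were nearly equal in level, unlike those of miR-1839. The 5p arm had 35.9 and 39.9 CPM in diabetic ulcers 1 and 2, against 43.9 and 46.1 CPM in normal ulcers 1 and 2, so both diabetic values were below both normal values. The 3p arm had 37.7 and 40.9 CPM in the diabetic ulcers, against 35.5 and 41.6 CPM in the normal ulcers, and its groups overlapped. The 5p share of both arms was 48.8% (95% Wilson interval 45.3 to 52.3) and 49.4% (46.1 to 52.7) in the diabetic ulcers, and 55.3% (52.1 to 58.4) and 52.6% (49.0 to 56.1) in the normal ulcers. The percentages of the groups did not overlap, but their intervals did (exact two-sided permutation p = 0.333, the smallest that 2 against 2 libraries allow). Arm shares were taken for every hairpin with a summed count of at least 20 on each arm. Besides miR-3068, only miR-1981 had 5p shares without overlap, at 98.98% and 98.22% in the diabetic ulcers and 99.10% and 98.99% in the normal ulcers.
The mature arms of miR-3068 are shown with their seeds in capitals.
miR-3068-5p: tTGGAGTTcatgcaagttctaacc
miR-3068-3p: gGTGAATTgcagtactccaaca

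The hairpins of miR-1843, also in scaRNA genes, gave a pair of 5p forms that are 1 base apart. They are shown with the bases they have in common in capitals.
miR-1843a-5p: tATGGAGGTCTCTGTCTGACT
miR-1843b-5p: ATGGAGGTCTCTGTCTGACTt
The sequence of miR-1843b-5p is present exactly in Scarna3a and in Scarna3b, so a read of this form cannot be given to one of the 2 genes. miR-1843a-5p had 79.9 and 139 CPM in diabetic ulcers 1 and 2, against 93.3 and 121 CPM in normal ulcers 1 and 2, with overlapping groups (log2 difference 0.03 ± 0.34). miR-1843b-5p had 34 and 45.8 CPM in the diabetic ulcers, against 19.9 and 26.6 CPM in the normal ulcers. Here both diabetic values were above both normal values, at a mean of 39.9 ± 8.30 CPM in diabetic ulcers and 23.3 ± 4.72 CPM in normal ulcers (SD, n = 2 each), with a log2 difference of 0.78 ± 0.33. By edgeR's quasi-likelihood test the unadjusted p was 0.0600 and the Benjamini-Hochberg adjusted p over all 493 miRNAs tested was 0.997.

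The share of the b form in the reads of both 5p forms does not depend on the scaling between libraries. It was 29.9% (95% Wilson interval 27.4 to 32.5, of 1218 reads) and 24.8% (22.9 to 26.7, of 1997) in diabetic ulcers 1 and 2, and 17.6% (15.7 to 19.7, of 1393) and 18.1% (16 to 20.3, of 1246) in normal ulcers 1 and 2. The intervals of the diabetic ulcers lay above those of the normal ulcers, and the 2 diabetic ulcers differed from each other by more than the normal ulcers did. With 2 libraries in each group the exact two-sided permutation p was 0.333, the smallest possible. The sum of both forms overlapped between the groups, at 113.9 and 184.7 CPM in the diabetic ulcers and 113.3 and 147.3 CPM in the normal ulcers.

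**Figure D2:**
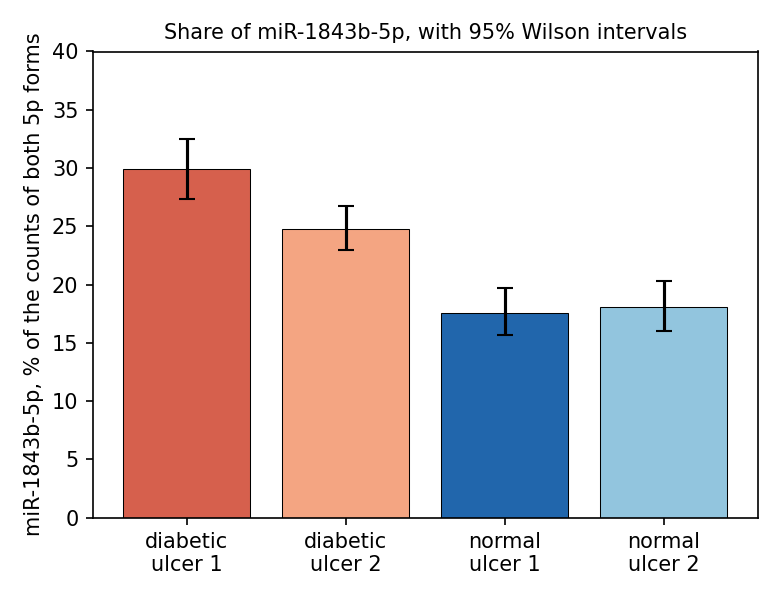
Share of miR-1843b-5p in the counts of both miR-1843 5p forms (%, y axis) in each library; each bar is 1 library and its line the 95% Wilson interval, which covers counting error only. The diabetic ulcers stand at 29.9% and 24.8%, above the normal ulcers at 17.6% and 18.1%.

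The intron-end miRNAs were mostly 3p arms at a 3′ splice site. Of the 21, 19 were 3p arms, and 12 of those ended exactly on the last base of an intron, each with the letters AG that close an intron; 6 ended 1 or 2 bases before it and 1 (miR-6418-3p, in Epo, the erythropoietin gene) reached 1 base past it. A pair of these is shown with the last 2 bases in capitals, from Rassf4, a gene of the RAS association domain family, and from Dnase1l1.
miR-7043-3p: actgtgcctctctgttttcAG
miR-7091-3p: agtggcttctgtcgtctctAG
The 2 remaining, miR-1981-5p and miR-7091-5p, started on the first base of an intron. Not all of these introns were short, with 8 of 19 at no more than 120 bases and a range of 74 to 36269 bases. The number block of mouse mirtrons, miR-6896 to miR-7093, supplied 23 members; 11 of its 12 3p arms and 1 of its 11 5p arms were at an intron end.

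Intron-end miRNAs were scarce apart from miR-1981-5p, which had 54.3 and 71.6 CPM in diabetic ulcers 1 and 2, against 53.8 and 69.3 CPM in normal ulcers 1 and 2. The groups overlapped in CPM, and the 5p arm held at least 98.2% of the reads of both miR-1981 arms in all 4 libraries. At miR-3102 the 3p arm held most of the reads instead. miR-3102-3p had 14 and 10 counts in diabetic ulcers 1 and 2, against 28 and 22 counts in normal ulcers 1 and 2, or a mean of 1.12 ± 0.272 CPM in diabetic ulcers and 2.44 ± 0.229 CPM in normal ulcers (SD, n = 2 each). Both diabetic values were below both normal values, with a log2 difference of -1.11 ± 0.46, the smallest unadjusted p among the late-numbered miRNAs at 0.0528, and an adjusted p of 0.997 (edgeR, quasi-likelihood, Benjamini-Hochberg). miR-7068-3p, whose hairpin is a 74-base intron of Cherp, had 13 and 8 counts in diabetic ulcers and 14 and 18 counts in normal ulcers, and miR-7043-3p had 15 and 11 counts in diabetic ulcers and 10 and 11 counts in normal ulcers. The values of both overlapped on the CPM scale.

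All 5 miRNAs on the strand opposite an older miRNA are named here: miR-3074-5p, miR-3074-1-3p and miR-3074-2-3p opposite the miR-24 hairpins, miR-3065-3p opposite miR-338, and miR-3071-5p opposite miR-136. miR-3074-5p had 107.7 and 74.8 CPM in diabetic ulcers 1 and 2, against 130.8 and 108.4 CPM in normal ulcers 1 and 2. The highest diabetic value was just under the lowest normal one, and the log2 difference was -0.39 ± 0.28. miR-24-3p, the abundant miRNA of the other strand, had 3995 and 3141 CPM in the diabetic ulcers, against 4102 and 3587 CPM in the normal ulcers, and its groups overlapped. miR-3074-2-3p, which marks the copy on chromosome 8, had 13 and 15 counts in diabetic ulcers and 25 and 17 counts in normal ulcers, or 1.22 and 1.39 CPM against 2.03 and 2.01 CPM. Its groups did not overlap (log2 difference -0.63 ± 0.44). miR-3074-1-3p had 13 and 8 counts in diabetic ulcers and 14 and 9 counts in normal ulcers, with overlapping CPM values. Of the 4 that were tested, 3 of them from miR-3074, all 4 had log2 differences below 0, with a median of -0.28, beside 217 of all 493 tested (44.0%), and none passed the test. Leaving out diabetic ulcer 2 brought miR-3074-5p to -0.15 and turned miR-3074-1-3p to 0.14, while leaving out diabetic ulcer 1 brought miR-3074-5p to -0.72. Without normal ulcer 1, miR-3074-5p stood at -0.25.

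**Figure D3:**
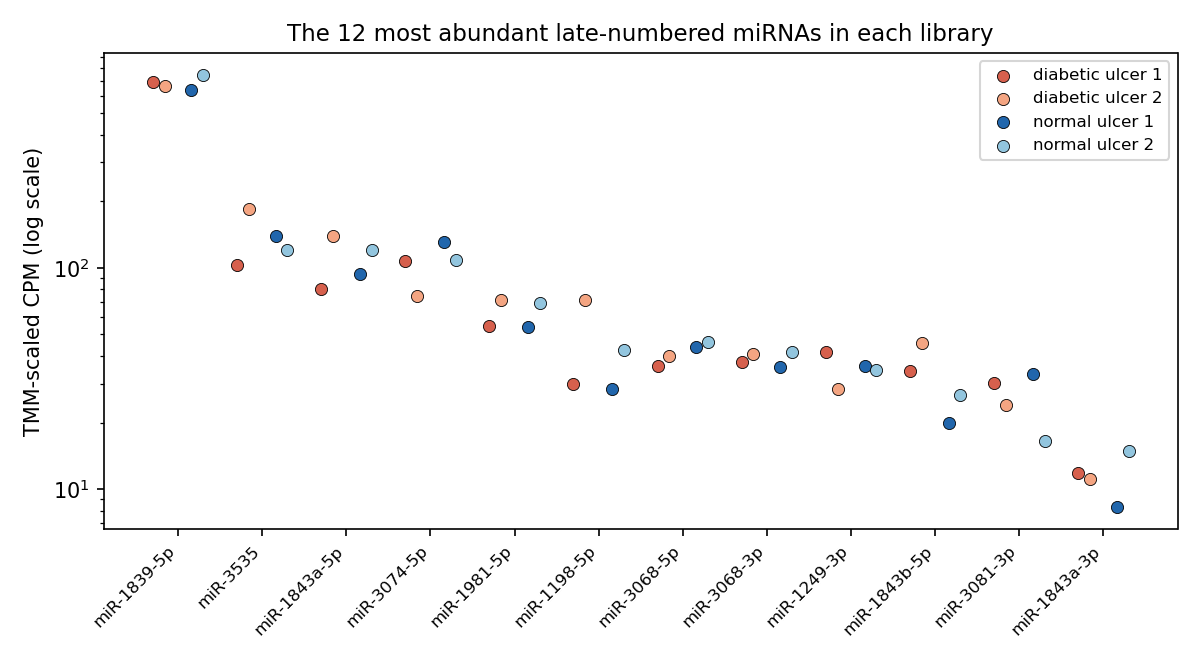
TMM-scaled CPM (log axis) of the 12 most abundant late-numbered miRNAs in each of the 4 libraries, 1 point per library, with diabetic ulcers to the left of normal ulcers. miR-1839-5p is the highest at 634 to 746 CPM, and of the 12 only miR-1843b-5p has both diabetic ulcers (34 and 45.8 CPM) above both normal ulcers (19.9 and 26.6 CPM).

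The remaining abundant miRNAs came from introns or exons of protein-coding genes. miR-1198-5p had 29.7 and 71.8 CPM in diabetic ulcers 1 and 2, against 28.3 and 42.5 CPM in normal ulcers 1 and 2, so that diabetic ulcer 2 stood alone above the others. Its log2 difference was 0.52 ± 0.49 and became -0.25 without diabetic ulcer 2. miR-1249-3p, within 5031439G07Rik, had 41.8 and 28.5 CPM in diabetic ulcers and 36.2 and 34.5 CPM in normal ulcers. miR-3081-3p, from an intron of Boc, a Hedgehog co-receptor gene, had 30.1 and 24.0 CPM in diabetic ulcers and 33.2 and 16.4 CPM in normal ulcers. The diabetic values of miR-3081-3p lay between its 2 normal values, and those of miR-1249-3p on either side of them.

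To compare the ulcers, edgeR's quasi-likelihood test was run on the counts of all 493 miRNAs with a summed count of at least 20 over the 4 libraries, of which 69 were late-numbered; the other 82 were not tested. No miRNA passed a Benjamini-Hochberg adjusted p of 0.05 (0 of 493, 0.0%), and 4 of 493 (0.811%) had an unadjusted p below 0.05, none of them late-numbered. Each of the 69 late-numbered miRNAs tested had an adjusted edgeR p of 0.997. DESeq2 and limma-voom also called none at an adjusted p below 0.05, with 4 and 3 miRNAs below an unadjusted 0.05. A p that misses the threshold does not show that the levels were the same.

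Of the 69 tested, 12 (17.4%) had both diabetic libraries above both normal ones, against 63 of all 493 tested (12.8%), and 7 (10.1%) had both below, against 50 of 493 (10.1%). The log2 difference was above 0 for 50 of the 69 (72.5%), against 276 of 493 (56.0%), and its median was 0.20, against 0.04 over all 493 and 0.02 over the other 424. As descriptions of these 4 libraries these shares stand near or somewhat above those of all miRNAs tested, and they depend on single libraries. Without normal ulcer 1 the median was 0.01, with 36 above 0 and 33 below, and without diabetic ulcer 2 it was 0.00, with 35 above and 34 below. Without normal ulcer 2 it was 0.34, with 50 above and 19 below, and without diabetic ulcer 1 it was 0.27, with 42 above and 27 below. Over all 493 the medians of these fits were 0.087, -0.011, 0.077 and -0.0019, in that order. At 100 to under 1000 summed counts 14 of 16 late-numbered miRNAs had values above 0, against 89 of 149 in the rest. At 20 to 99 counts the numbers were 29 of 42, against 41 of 82, and at 1000 or more 7 of 11, against 96 of 193. By class, values were above 0 for 8 of 13 in snoRNA or scaRNA genes (median 0.03), 5 of 7 at intron ends (0.20), 0 of 4 opposite an older miRNA (-0.28) and 37 of 45 elsewhere (0.26).

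**Figure D4:**
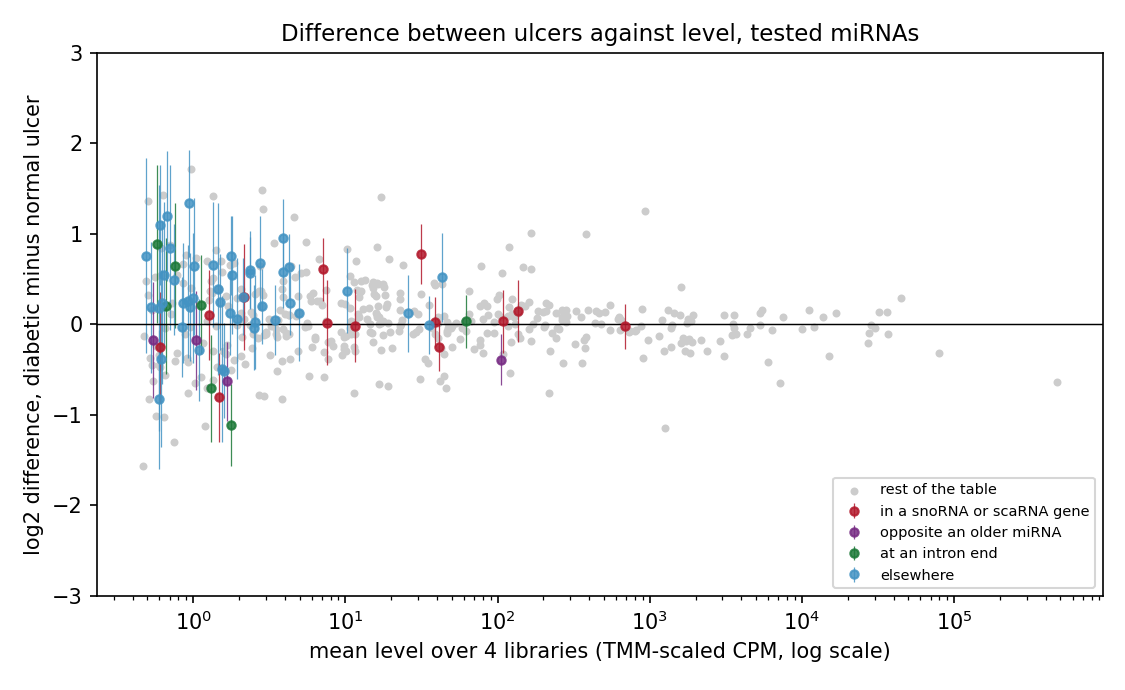
Log2 difference between ulcers (diabetic minus normal, y axis) against mean level (TMM-scaled CPM, log x axis) for the 69 tested late-numbered miRNAs, coloured by class with lines of ± 1 SE, over the rest of the tested miRNAs in grey. The late-numbered values run between -1.11 (miR-3102-3p) and 1.34 (miR-7236-3p) and narrow toward higher levels; 2 grey points beyond ± 3 are not drawn.

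The miRNAs with the smallest p-values on the higher side in diabetic ulcers had few reads, except miR-1843b-5p. miR-7236-3p had 11 and 18 counts in diabetic ulcers 1 and 2, against 7 and 4 counts in normal ulcers 1 and 2 (1.03 and 1.66 CPM against 0.569 and 0.473 CPM). Both diabetic values were above both normal ones, with the log2 difference at 1.34 ± 0.59 and an unadjusted edgeR p of 0.0674. miR-7688-5p had 39 and 71 counts in diabetic ulcers, against 34 and 21 counts in normal ulcers (3.65 and 6.56 CPM against 2.76 and 2.48 CPM; log2 difference 0.95 ± 0.43). Diabetic ulcer 2 was the highest of its 4 values, and without it the difference was 0.47. miR-1291, from the snoRNA gene Snora34, had 103 and 82 counts in diabetic ulcers, against 69 and 48 counts in normal ulcers (9.63 and 7.58 CPM against 5.61 and 5.67 CPM; log2 difference 0.61 ± 0.35). Its normal values were close together and below both diabetic ones, and without diabetic ulcer 1 the difference was 0.39.

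The same order held for miR-1983, which had 5.98 and 4.35 CPM in diabetic ulcers, against 3.33 and 3.31 CPM in normal ulcers. miR-12191-3p had 2.06 and 2.40 CPM in diabetic ulcers, against 1.22 and 1.42 CPM in normal ulcers. For miR-1983 and miR-12191-3p the unadjusted edgeR p-values were 0.139 and 0.135, by the fit across all miRNAs. miR-1191a, in an exon of BC024978, had 44 and 57 counts in diabetic ulcers, against 31 and 32 counts in normal ulcers. The least abundant were miR-1960, from an intron of the fatty acid oxidation gene Hadhb, with 8 and 12 counts in diabetic ulcers and 3 and 5 counts in normal ulcers, and miR-1934-5p, with 11 and 7 counts in diabetic ulcers and 5 and 3 counts in normal ulcers. None of these 5 overlapped between the groups, beside 63 of all 493 tested (12.8%) with both diabetic libraries above both normal ones. All but miR-1191a were named for their small p-values, which favours such an order. None of the 5 passed the test.

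On the lower side in diabetic ulcers, after miR-3102-3p, stood miR-3084-5p, which matches the snoRNA gene Snora19. It had 14 and 9 counts in diabetic ulcers 1 and 2, against 23 and 16 counts in normal ulcers 1 and 2 (1.31 and 0.832 CPM against 1.87 and 1.89 CPM), and its groups did not overlap. miR-3102-5p.2-5p, from the same intron as miR-3102-3p, had 3 and 6 counts in diabetic ulcers and 6 and 9 counts in normal ulcers, with overlap. miR-3061-5p, in an exon of Ppp2ca, the gene of a protein phosphatase catalytic subunit, had 15 and 13 counts in diabetic ulcers and 16 and 21 counts in normal ulcers. Its log2 difference was -0.51 ± 0.53, smaller than its error.

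The list for the imprinted Dlk1-Dio3 region of chromosome 12, which has a large miRNA cluster, held 5 late-numbered miRNAs. Of these, 3 were tested and all 3 had log2 differences above 0, with a median of 0.64 and none past the test, beside 56.0% above 0 among all miRNAs tested. miR-1193-3p had 31 and 30 counts in diabetic ulcers, against 21 and 18 counts in normal ulcers, with no overlap in CPM. miR-3072-3p, in the long noncoding RNA gene Mirg, had 20 and 15 counts in diabetic ulcers and 6 and 14 counts in normal ulcers, and miR-1197-3p had 11 and 15 counts in diabetic ulcers and 4 and 11 counts in normal ulcers. Both were lowest in normal ulcer 1, and their groups overlapped in CPM. Without normal ulcer 1 their log2 differences turned to -0.02 (miR-3072-3p) and -0.10 (miR-1197-3p). miR-1247-3p, in an exon of Dio3os at the Dio3 end of the region, was not on the list; it had 23 and 16 counts in diabetic ulcers and 18 and 16 counts in normal ulcers, with overlap in CPM and a log2 difference of 0.12 ± 0.47. The untested members were miR-1193-5p, with 2 and 0 counts in diabetic ulcers and 1 and 4 counts in normal ulcers, and miR-3071-5p, with 1 and 5 counts in diabetic ulcers and 8 and 5 counts in normal ulcers.

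Among the 16 miRNAs on the list of numbers also used in human, which lacks miR-1291 (0.61), 14 were tested, 8 with log2 differences above 0 and 6 below (median 0.07), and none passed. Of the 25 in the list of mirtron numbers, which adds miR-3102 to the block above, 7 were tested, 3 above 0 and 4 below (median -0.29), and none passed. The list of families with a letter suffix held miR-1843 and miR-3473h-5p; 3 of its 4 members, all of miR-1843, were tested, 2 above 0 and 1 below (median 0.03), and none passed. Outside that list, miR-1191a, miR-1191b-5p and miR-1970b-5p also carry a letter, and their log2 differences were 0.58, 0.29 and -0.38.

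The authors' deposited table compared the columns titled normal ulcer with those titled diabetic ulcer, as normal over diabetic, and held 151 late-numbered entries. Its mean for the diabetic columns was a constant multiple of diabetic ulcer 2 alone for 630 of 630 entries above 0, within 0.1%, so the comparison set the 3 normal columns against that library. In the authors' deposited table none of the 151 had a q-value below 0.05, and 1 had a p-value below 0.05: miR-1198-5p, with a base mean of 722 on the diabetic side and 352 on the normal side, a log2 fold change (normal over diabetic) of -1.04, p = 0.0175 and q = 0.812. This is the miRNA whose diabetic ulcer 2 stood alone. The next entries in the authors' deposited table included miR-3074-5p, at 0.69 (p = 0.0617), and miR-7688-5p, at -1.08 (p = 0.0748). This comparison shares its libraries with the counts above.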

How the data were processed

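Per the labels' protocols, a mirVana kit was used on the skin tissue and sequencing was on an Illumina platform. GRCm38 and mm10 are named in the submitters' processing notes; no source used here gives the aligner, the counter or the miRNA release. The authors deposited raw, whole-number counts for each mature miRNA and a table of TPM values made from them. The authors' deposited comparison table holds base means (a normalized signal), fold changes as a ratio, log2 fold changes, p-values and q-values; it was used only where named.

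The 151 late-numbered miRNAs and the lists were chosen with earlier results of these data known. Counts of the 4 independent libraries were fitted with edgeR 4.0.16 (R 4.3.3; TMM scaling, dispersion estimation, quasi-likelihood F test) for all 493 miRNAs with a summed count of at least 20, with Benjamini-Hochberg adjustment over all 493; the SE was the log2 difference over the square root of F. Totals ran from 8949104 to 13421603 counts per library. Counts were not shared out between identical copies by this work, and how the authors assigned such reads is not stated. Of all value columns, 0 were left unmapped. The fit was run on simulated counts. How often it finds a true difference with 2 libraries in each group is not given here. Members named are the 12 most abundant, up to 8 in each direction by unadjusted p, up to 3 of each list by level, and those at the number limit; miR-3071-5p, miR-3065-3p, miR-1933-5p, miR-6951-5p, miR-7670-3p, miR-6418-3p, miR-7091, miR-1247-3p and miR-1970b-5p were named after their values or positions were seen. Alternatives were limma 3.58.1, DESeq2 1.42.0, other scalings and filters, the deposited TPM, the replicate block, and leaving out each library. Genome positions came from RefSeq (GRCm38.p6) and GENCODE annotation.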

Additional observations from a re-analysis of the deposited data

Results flagged for a closer look

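The columns numbered 3, which took no part in the comparisons, mostly repeat the other libraries, but 3 late-numbered miRNAs stood out in them. miR-5114 had 25 counts in diabetic ulcer 3, against 2 and 2 counts in diabetic ulcers 1 and 2 and 4, 2 and 3 counts in normal ulcers 1, 2 and 3. miR-3066-3p had 11 counts in normal ulcer 3, against 0 and 1 counts in diabetic ulcers 1 and 2 and none in normal ulcers 1 and 2. miR-6955-3p had 6 counts in normal ulcer 3, against 1 and 1 counts in diabetic ulcers 1 and 2 and 0 and 1 counts in normal ulcers 1 and 2. The cause was not tested.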

How the results depend on the processing

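In none of the 17 alternative fits did a late-numbered miRNA pass an adjusted p of 0.05; the smallest was 0.242. Over all miRNAs, library totals as the scaling gave 2 calls, and leaving out each library gave 0 to 3. The median log2 difference of tested late-numbered miRNAs was 0.38 with library totals (all miRNAs moved to 0.17), 0.018 on deposited TPM with a pseudocount of 10, and 0.0050 to 0.34 leaving out each library. The log2 ratio of the summed share, 0.15, ran from -0.25 (without normal ulcer 2) to 0.72. The difference in detected miRNAs was 8.5 at 1 count or more, where the order of the libraries rests on the entry rule. It was 4.5 at 10 counts or more, where the other entries were not counted. The replicate numbers gave only 2 pairs that share a number (correlation of deviations 0.44 over all tested, 0.06 over late-numbered miRNAs); the replicate block left 0 calls, with 22 of 493 below an unadjusted 0.05, against 4, and a median of 0.20. Of 541 values of 32 named miRNAs under alternatives, 486 kept their direction, 55 reversed and 0 passed; 17 miRNAs never reversed. The reversed values follow; the cause was not tested. All 6 columns: miR-3081-3p -0.037. Replicate block: miR-1843a-5p -0.011, miR-1843a-3p 0.038. DESeq2: miR-1843a-5p -0.019, miR-1981-5p -0.014, miR-3068-3p -0.017. RLE scaling: miR-1843a-5p -0.019, miR-1981-5p -0.014, miR-3068-3p -0.018. limma-voom: miR-1843a-5p -0.0066, miR-1843a-3p 0.056. Upper quartile scaling: miR-1843a-5p -0.097, miR-1981-5p -0.083, miR-3068-3p -0.080. Library totals: miR-1839-5p 0.13, miR-1249-3p 0.10, miR-1843a-3p 0.25. No filter: miR-1249-3p 0.0071, miR-1843a-3p 0.0025. The edgeR default filter: miR-1843a-5p -0.021, miR-1981-5p -0.023, miR-3068-3p -0.032. Without miR-1a-3p: miR-1249-3p 0.015. Deposited TPM with pseudocounts of 1, 0.1 and 10, in that order: miR-1839-5p 0.019, 0.020 and 0.019, miR-1249-3p 0.0036, 0.0037 and 0.0030, and miR-1843a-3p 0.066, 0.078 and 0.027. Leaving out each library gave miR-1191b-5p -0.40 to 1.37, miR-1197-3p -0.10 to 1.86, miR-1198-5p -0.25 to 0.98, miR-1249-3p -0.35 to 0.24, miR-1839-5p -0.14 to 0.099, miR-1843a-3p -0.38 to 0.46, miR-1843a-5p -0.42 to 0.34, miR-1981-5p -0.18 to 0.23, miR-3061-5p -0.92 to 0.0013, miR-3068-3p -0.083 to 0.14, miR-3072-3p -0.023 to 1.72, miR-3074-1-3p -0.61 to 0.14, miR-3081-3p -0.29 to 0.72, miR-3535 -0.33 to 0.46 and miR-7043-3p -0.10 to 0.57; each such fit assumes that the lone library of a group varies like the other group.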
